A study of Rattus norvegicus with 30 samples.

Results

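Livers of 4 male rats with a knockout of the constitutive androstane receptor (CAR KO) were compared with livers of 4 male Crl:CD(SD) rats, both on control diet. These 8 arrays were taken from a series of 30 arrays by the model and diet given in the sample titles. The SD rats are a commercial outbred stock with an intact receptor, and both groups had 7 days of diet with 0 ppm phenobarbital (PB). The labels name neither the animals' age nor, for the knockout, its strain, the part of the gene removed or the number of founders. The remaining arrays held the same 2 models on 1000 ppm PB, 4 arrays each, and chimeric mice carrying rat hepatocytes. Replicates are labelled as biological, 1 array each. The p-values measure the spread between arrays within each rat group, pooled over the control and PB groups of both models.

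RNA of whole liver was read on 1-colour arrays. A level below is the log2 of a probe's processed signal minus the 75th percentile of its array, so a level of 0 lies at that percentile, and a difference is always CAR KO minus SD on the log2 scale, with its standard error (SE). All SD arrays lay on 1 slide with 1 scan and all CAR KO arrays on another, so the model and the slide cannot be told apart in any value given here. Between 63.3% and 64.6% of probes were well above background on the SD arrays and 64.4% to 67.0% on the CAR KO arrays, and the signal at the 75th percentile was 414 to 460 and 487 to 539. Pairs of arrays correlated across probes at 0.992 to 0.994 within CAR KO, 0.990 to 0.991 within SD and 0.984 to 0.987 between them. Genes with a mean level of at least 0 that were well above background on all 8 arrays are called bright below, and they are described first. In bulk RNA, fewer cells of a type and less RNA per cell cannot be told apart.

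CAR, encoded by Nr1i3, is a nuclear receptor of hepatocytes that pairs with the retinoid X receptor. Phenobarbital moves it into the nucleus, where it raises cytochromes P450 of the Cyp2b and Cyp3a families together with glucuronosyltransferases, carboxylesterases and transporters. It shares many of these targets with the pregnane X receptor. On a control diet no drug activates it, so the comparison asks what the liver of an animal without the receptor looks like before treatment.

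Of 17725 genes and unnamed transcripts tested, 6038 (34.1%) differed between CAR KO and SD livers at an adjusted p under 0.05, 2547 (14.4%) higher in CAR KO and 3491 (19.7%) lower. Most of these differences were small, and the median over everything tested was -0.08. At least 2-fold differences numbered 992 (5.6%), and they ran the other way from the whole, with 863 higher in CAR KO and 129 lower. Of the 863 increases, 628 belonged to transcripts without a gene name and 234 to named genes, while 78 of the 129 decreases were of named genes. Among 7040 bright genes 2751 (39.1%) were called, 857 (12.2%) higher and 1894 (26.9%) lower, and 227 of them differed at least 2-fold, 203 higher and 24 lower. The balance of directions moved with the processing. Scaling by the 75th percentile of probes above background on all 16 rat arrays gave 2812 higher and 2811 lower, a normexp background correction 2061 higher and 5442 lower, and a spread taken over all 30 arrays 1402 higher and 718 lower. For bright genes, all 30 arrays gave 447 higher and 351 lower. The share of tested genes called was 23.3% in the dimmest class, below a level of -4, and 39.5% in the brightest, above 2.

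**Figure D1:**
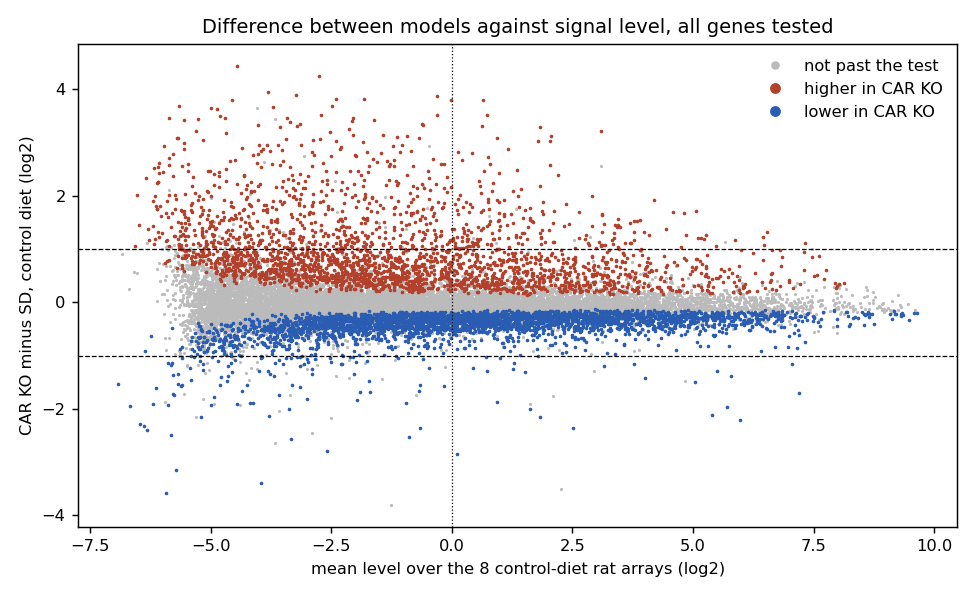
Difference between CAR KO and SD livers on control diet (y axis, log2) against the mean level over the 8 arrays (x axis, log2) for the 17725 genes and transcripts tested, 1 point each, in red where higher in CAR KO, in blue where lower and in grey where the test was not passed. Dashed lines mark 2-fold differences and the dotted line the level of 0: large differences were mostly increases, and the called decreases lay mostly close to 0.

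The difference in Nr1i3 itself did not pass the test. Its brighter probe read 1.13, 1.30, 0.69 and 1.35 on the CAR KO arrays and 0.92, 1.88, 0.76 and 1.14 on the SD arrays, a difference of -0.05 ± 0.304 (adjusted p = 0.907). The groups overlapped, and with any 1 array left out the difference lay between -0.19 (without SD replicate 3) and 0.18 (without SD replicate 2). A second probe read 0.06, 0.08, -0.61 and 0.24 against -0.43, 0.37, -0.35 and -0.19, a difference of 0.09 ± 0.325 (adjusted p = 0.852). Where either probe lies relative to the removed sequence is not known here, so these values do not check the labels.

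Genes next to Nr1i3 were looked at because a knockout made in another strain can carry that strain's surrounding sequence. Of the 15 protein-coding genes on each side, 27 were on the array and 23 were tested. In CAR KO 3 were higher and 6 lower (39.1% called, against 34.1% of all genes), with a median of -0.19. Pcp4l1, the gene directly beside it, encodes a small calmodulin-binding protein and had the one difference of at least 2-fold, -1.66 ± 0.498 (adjusted p = 0.019), while on the PB diet it was -0.65 (adjusted p = 0.31). Its neighbour on the other side, Tomm40l, differed by -0.11 ± 0.14 (adjusted p = 0.56). The mitochondrial gene Sdhc (0.21) and the Fc receptor gene Fcgr2a (0.27) were among those higher. Fcgr2al1 (-0.71), Dedd (-0.47), the ubiquitin-like conjugation gene Ufc1 (-0.43), Usp21 (-0.29) and Pfdn2 (-0.22) were lower. The calls of Sdhc, Usp21 and Pfdn2 each ended without at least 3 different arrays taken singly (adjusted p up to 0.094).

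Among CAR and PXR target genes the difference on control diet was limited to a few members. Of 31 tested, 1 was higher and 4 lower (16.1% called, against 34.1% of all genes), and the median of -0.15 compares with -0.08 over all genes. Without SD replicate 2 the lower ones were 2, and without SD replicate 3 the higher ones were 2. Ugt2b1, a glucuronosyltransferase, had the largest decrease of the list. It read 1.11, 1.18, 1.70 and 1.33 on the CAR KO arrays and 3.68, 3.32, 4.54 and 3.23 on the SD arrays. Every CAR KO array lay below every SD array, and the level was 5.14-fold lower (-2.36 ± 0.406, adjusted p = 0.000544). On PB the models differed by -4.88 ± 0.404 (adjusted p = 5.04e-07).

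Por encodes the reductase that supplies electrons to all microsomal cytochromes P450. It read 0.80, 0.57, 1.06 and 0.75 in CAR KO and 1.51, 1.28, 1.53 and 1.77 in SD livers. The groups did not overlap and the level was 1.66-fold lower (-0.73 ± 0.176, adjusted p = 0.0057). Cyp3a2, a male-predominant steroid and drug hydroxylase, read 6.80, 6.59, 5.37 and 7.13 in CAR KO and 7.85, 8.14, 7.61 and 6.94 in SD livers. The groups overlapped by 1 array, CAR KO replicate 4, and the difference was -1.16 ± 0.378 (adjusted p = 0.0284). That call ended without SD replicate 1, 2 or 3 or without CAR KO replicate 3, with adjusted p from 0.052 to 0.0813 and a difference of -0.80 without the last. Cyp2a1, a testosterone hydroxylase, was lower by a smaller amount (-0.32 ± 0.107, adjusted p = 0.033), a call that ended without any of 5 arrays (-0.24 without CAR KO replicate 4). The drug efflux pump gene Abcb1a differed by 1.43 ± 0.391 (adjusted p = 0.0115), but only 1 of 4 SD arrays measured it, and with normexp the difference was 0.15 (adjusted p = 0.186).

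The other prototypical targets did not pass the test on control diet. Cyp2b2, the phenobarbital-inducible P450, read 2.74, 2.89, 2.90 and 2.94 in CAR KO and 2.84, 3.21, 2.84 and 2.88 in SD livers, a difference of -0.08 ± 0.138 (adjusted p = 0.687). SD replicate 2 was the highest array, and the other 7 lay close together in both models. A dimmer probe of the gene read 0.70, 0.58, 0.93 and 0.91 against 0.96, 2.61, 1.05 and 1.34, a difference of -0.71 ± 0.283 (adjusted p = 0.0667). Here too SD replicate 2 was the highest, and every CAR KO array lay below every SD array. Differences were 0.07 ± 0.193 for Cyp3a23-3a1, -0.04 ± 0.163 for the epoxide hydrolase Ephx1, 0.49 ± 0.274 for the carboxylesterase Ces2c, 0.43 ± 0.453 for the retinal dehydrogenase Aldh1a1 and -0.37 ± 0.204 for the stress gene Gadd45b. Cyp2b21 and the efflux pump gene Abcc3 were too dim to be tested. Probes of such families can bind more than 1 close relative, so values within the Cyp2b, Cyp3a, Ugt2b and Sult2a families are uncertain as to member.

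**Figure D2:**
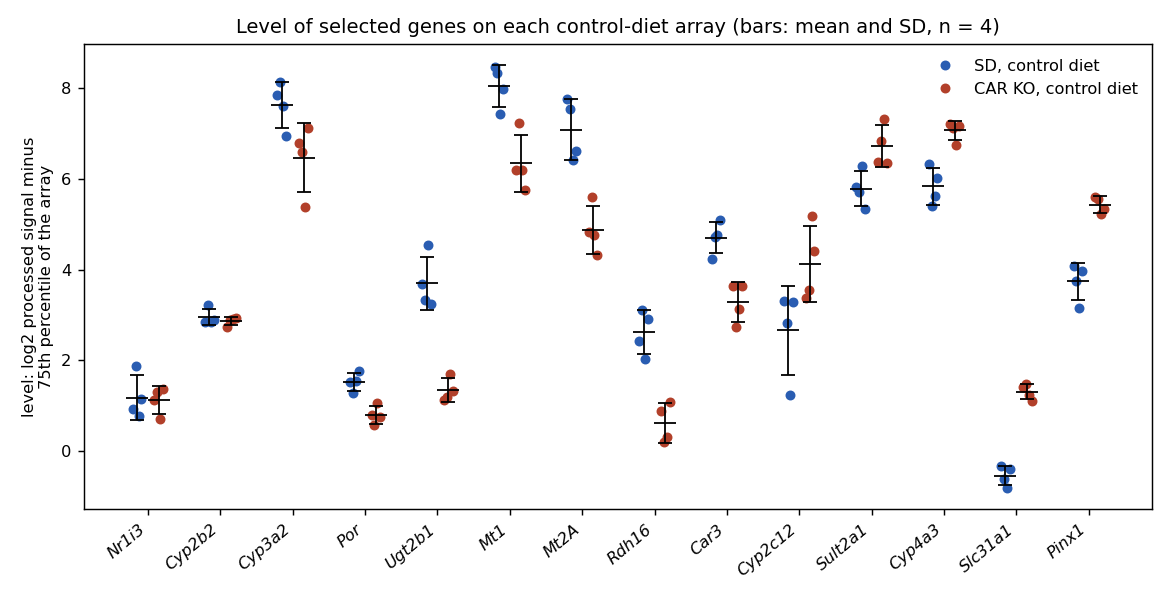
Level of 14 genes (y axis, log2 processed signal minus the 75th percentile of the array) on each of the 4 SD and 4 CAR KO control-diet arrays (points), with the mean and SD (bars). Nr1i3 and Cyp2b2 overlap between the models, Ugt2b1, Por, Mt2A and Rdh16 are lower on every CAR KO array, and Cyp4a3, Slc31a1 and Pinx1 are higher on every CAR KO array.

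Conjugation enzymes, which attach glucuronic acid, sulfate or glutathione to drugs and hormones, gave 16 lower and 1 higher of 44 tested (38.6% called, against 34.1% of all genes), and the median was -0.26. Of 38 bright members 15 were lower, beside 26.9% of all bright genes. With the spread of all 30 arrays 8 members were lower. Besides Ugt2b1, the glucuronosyltransferases Ugt2a3 (-1.31 ± 0.31, adjusted p = 0.00511) and Ugt2b15 (-0.84 ± 0.123, adjusted p = 0.000146) were lower. Ugt2b15 was the steadier of the pair, at 6.53, 6.65, 6.49 and 6.56 against 7.36, 7.51, 7.73 and 6.98. Ugt2b35 (-0.61) and Ugt2b10 (-0.52), chosen after their values were seen, were also lower. All of these were called again on PB. The exception was Sult2a1, a hydroxysteroid sulfotransferase, described with the sex-biased genes below.

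Cytochromes P450 outside the CAR and PXR list moved in both directions. Of 40 tested 3 were higher and 9 lower (30% called, against 34.1% of all genes). Cyp4a3, a fatty acid omega-hydroxylase, read 7.22, 7.13, 6.75 and 7.17 in CAR KO and 6.32, 5.40, 5.62 and 6.02 in SD livers. That is a 2.34-fold higher level with no overlap (1.23 ± 0.214, adjusted p = 0.000589), and it was 1.31 ± 0.212 on PB. Cyp4a8 was 0.87 ± 0.0901 higher by its brighter probe but -1.40 ± 0.511 by its dimmer one, both past the test, so its direction is unsettled. Cyp4f5, a fatty acid hydroxylase of lower signal, differed by -1.69 ± 0.347, with SD replicate 3 at -2.47 close to the CAR KO arrays (-2.86 to -2.62).

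In the list of carboxylesterases, flavin monooxygenases and aldehyde enzymes 1 of 59 was higher and 10 were lower (18.6% called, against 34.1% of all genes). Ces1a was 1.58 ± 0.228 higher on control diet (adjusted p = 0.000126) and 0.24 ± 0.227 on PB (adjusted p = 0.428). Fmo1 read 0.68, 0.73, 0.55 and 0.58 in CAR KO and 1.13, 2.42, 2.35 and 1.64 in SD livers, lower on every CAR KO array (-1.25 ± 0.33, adjusted p = 0.00955). On PB its difference was 0.00 ± 0.329 (adjusted p = 0.995). Ces1d was lower (-0.82 ± 0.255), a call that ended without SD replicate 3 (-0.58) or CAR KO replicate 3 (-0.71). The call of the dim Aldh1a3 (-0.64 ± 0.216) ended without CAR KO replicate 3 (-0.44) or 4. This gene was measured on 1 CAR KO and 3 SD arrays and passed the filter only through the latter, so its direction follows from the filter. Of drug and bile acid transporters 4 of 35 were higher and 9 lower (37.1% called). Named among them were the carnitine carrier Slc22a5 (0.71 ± 0.179, and 0.21 with normexp at an adjusted p of 0.0771), the ileal-type bile acid carrier Slc10a2 (-1.41 ± 0.317, measured on 2 CAR KO arrays) and Slco3a1 (-1.02 ± 0.338). The Slco3a1 call ended on leaving out any 1 of SD replicates 1, 2 and 3 and CAR KO replicates 1 and 4, with -0.83 without SD replicate 3.

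Genes that are higher in female than in male rat liver were examined next in these male animals. Of 17 tested 4 were higher in CAR KO and 2 lower (35.3% called, against 34.1% of all genes), with a median of 0.37, and 3 of the increases were at least 2-fold. The count of 4 dropped to 1 without SD replicate 2 or CAR KO replicate 3 and to 2 without SD replicate 4 or CAR KO replicate 2, and it was 1 with the spread of all 30 arrays. Cyp2c12, the female-specific steroid sulfate hydroxylase, read 3.36, 3.54, 5.17 and 4.41 in CAR KO and 3.31, 2.81, 1.23 and 3.29 in SD livers. No array overlapped, though the nearest almost touched, and the difference was 1.46 ± 0.528 (adjusted p = 0.0457). A1bg, a secreted binding protein, read -3.55, -1.56, -0.02 and -3.57 against -3.50, -6.43, -3.93 and -5.48, with overlap, and 2 of the SD arrays did not measure it (2.66 ± 0.92, adjusted p = 0.0378). With normexp the A1bg difference was 1.09 (adjusted p = 0.121). Prlr, the prolactin receptor, read -0.32, 0.18, 0.76 and -1.21 against -1.35, -3.79, -0.38 and -4.28 (2.30 ± 0.829, adjusted p = 0.0449), also with overlap. CAR KO replicate 3 was the highest and the SD rats were spread widely for each of these 3 genes.

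Sult2a1 had less spread, at 6.37, 6.84, 7.32 and 6.34 in CAR KO against 5.82, 5.71, 6.28 and 5.34 in SD livers (0.93 ± 0.26, adjusted p = 0.0132), with no overlap. On PB the models differed more in all 4 genes, by 3.97 ± 0.526 for Cyp2c12, 6.12 ± 0.916 for A1bg, 4.89 ± 0.825 for Prlr and 2.30 ± 0.259 for Sult2a1, while the difference between diets itself did not pass the test for any of them (adjusted p from 0.13 to 0.36). The Cyp2c12 call on control diet ended without SD replicate 2 or 3 or CAR KO replicate 3 or 4 (0.98 without SD replicate 3). Those of A1bg and Prlr each ended without 4 or 5 different arrays taken singly (1.94 and 2.0 without CAR KO replicate 3, 2.13 and 1.85 without SD replicate 2, and 2.44 and 1.69 without SD replicate 4). Cyp2a1 was among the 2 lower members of the list.

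Male-predominant genes gave 1 higher and 4 lower of 23 (21.7% called, against 34.1% of all genes), with a median of -0.15. Leaving out 1 array gave between 0 lower (without CAR KO replicate 3) and 4. The lower ones included Cyp3a2, the chemokine Ccl6 (-0.71 ± 0.235) and the signalling adaptor Stac3 (-0.59 ± 0.207), and the urinary protein Mup4 was higher (0.44 ± 0.11, and 0.93 ± 0.0989 by a second probe). The Ccl6 and Stac3 calls each ended without any of 6 arrays (-0.60 without CAR KO replicate 3 and -0.42 without CAR KO replicate 2). In the growth hormone and IGF axis, which sets these sex differences, 2 of 20 were higher, Prlr and the trypsin inhibitor Spink1 (1.45 ± 0.455), and 3 were lower. Among those were the IGF carrier Igfbp3 (-0.36 ± 0.122) and the protease inhibitor Serpina1 (-0.40 ± 0.0607). The Igfbp3 call ended without 6 of the 8 arrays taken singly (-0.30 without CAR KO replicate 1). Spink1 was 1.15 without SD replicate 3, where its call ended too.

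Metallothioneins, small proteins that bind zinc and copper, were among the bright genes with the largest decreases. These genes, Fmo1 above included, were chosen among those whose groups did not overlap, so that trait adds no support. Of all genes tested 34.3% had groups that did not. Mt2A read 4.82, 5.60, 4.75 and 4.31 in CAR KO and 7.76, 7.55, 6.41 and 6.63 in SD livers. The groups did not overlap and the level was 4.65-fold lower (-2.22 ± 0.491, adjusted p = 0.00331), and a second probe gave -2.18 ± 0.455. Mt1 read 6.19, 7.24, 6.19 and 5.76 against 8.46, 8.33, 7.43 and 7.98, 3.26-fold lower (-1.71 ± 0.455, adjusted p = 0.0101). On PB neither passed the test, with -0.16 ± 0.489 for Mt2A and 0.64 ± 0.452 for Mt1 (adjusted p = 0.819 and 0.27), though the change of the difference with diet did not pass the test (adjusted p = 0.23 and 0.14).

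Both genes are controlled by the zinc sensor MTF1 at metal response elements. Their promoters are shown because the pair moved together and the elements lie within them, from 250 bases before the start to 50 after, on the minus strand of RefSeq's GRCr8 at chr19:10832926-10833225 for Mt1 and chr19:10838659-10838958 for Mt2A. Capitals mark the element's core, searched as TGCACNC and TGCGCNC on both strands.
Mt1: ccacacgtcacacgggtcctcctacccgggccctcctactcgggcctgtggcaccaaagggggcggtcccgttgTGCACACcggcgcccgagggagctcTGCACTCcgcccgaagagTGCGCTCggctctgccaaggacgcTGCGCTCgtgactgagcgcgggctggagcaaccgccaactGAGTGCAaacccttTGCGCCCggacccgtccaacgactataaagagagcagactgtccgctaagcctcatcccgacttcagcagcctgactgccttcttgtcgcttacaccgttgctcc
Mt2A: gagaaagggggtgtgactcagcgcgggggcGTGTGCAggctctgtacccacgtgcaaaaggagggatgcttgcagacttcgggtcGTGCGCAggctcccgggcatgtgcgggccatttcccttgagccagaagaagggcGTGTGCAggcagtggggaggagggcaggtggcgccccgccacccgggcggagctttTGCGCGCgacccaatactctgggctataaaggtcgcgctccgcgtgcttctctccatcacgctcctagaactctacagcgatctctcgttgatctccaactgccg
The core occurs 6 times in the Mt1 promoter and 4 times in that of Mt2A. Of 33469 rat promoters of this length 24.2% hold at least 1 and 0.439% hold 4 or more. A match is a description of letters, and the motif was chosen after the values were seen.

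Glucocorticoid-responsive genes, a list that holds both metallothioneins, gave 3 higher and 4 lower of 25 (28.0% called, against 34.1% of all genes). Ddit4, an inhibitor of mTOR signalling, was lower (-0.83 ± 0.223, adjusted p = 0.0104), and Zfp36, which destabilises cytokine mRNAs, was higher (0.86 ± 0.202, adjusted p = 0.00465). Both were called in the same direction on PB.

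The other bright genes with the largest decreases had varied functions. Here too the rule required groups that did not overlap. Rdh16, a retinol and steroid dehydrogenase, read 0.87, 0.19, 0.30 and 1.08 in CAR KO and 2.42, 3.11, 2.03 and 2.91 in SD livers, 4.02-fold lower with no overlap (-2.01 ± 0.254, adjusted p = 3.89e-05). It was -1.57 ± 0.383 by a second probe and -2.99 ± 0.253 on PB. Car3, a carbonic anhydrase abundant in male rat liver, read 3.63, 2.74, 3.13 and 3.64 against 4.24, 4.72, 4.77 and 5.09, a 2.68-fold lower level (-1.42 ± 0.235, adjusted p = 0.000391). Retreg1, a receptor for autophagy of the endoplasmic reticulum, was lower by both its probes (-1.23 ± 0.283 and -1.65 ± 0.258) and on PB (-2.16 ± 0.282). Acat1, the mitochondrial acetoacetyl-CoA thiolase, was lower on every CAR KO array, but these lay in pairs, at -0.89 and -1.02 and at 1.10 and 0.81, against 1.78 to 2.11 in SD livers (-1.88 ± 0.506). Rnf8, a ubiquitin ligase of the DNA damage response, was split likewise, at 1.01 and 0.98 and at 0.08 and -0.14 against 1.5 to 1.54 (-1.04 ± 0.302). Slc16a11 (-1.29 ± 0.38), a monocarboxylate carrier, Golt1a (-1.03 ± 0.333), a vesicle transport gene, and Acsbg1 (-1.01 ± 0.185), a fatty acid CoA ligase, completed the 12 lowest. The Slc16a11 call ended without SD replicate 1 (-1.04) or CAR KO replicate 3 (-1.02), that of Rnf8 without CAR KO replicate 4 (-0.83) and that of Golt1a without any of 5 arrays (-0.89 without SD replicate 2).

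The 12 highest bright genes were Defb43, Hyal3, Slc31a1, RT1-CE11, Pinx1, Cox6c-ps1, Apol7b, Or8w1b, Cox4i2, Ehd2, Cyp2c12 and Spink1. Their CAR KO and SD arrays did not overlap, as the rule required, and 34.3% of all genes tested had groups that did not. Slc31a1, the copper importer, read 1.41, 1.47, 1.22 and 1.11 in CAR KO and -0.35, -0.63, -0.82 and -0.40 in SD livers, 3.61-fold higher (1.85 ± 0.104, adjusted p = 6.46e-09), and 1.81 ± 0.103 on PB. Pinx1, a telomerase inhibitor, read 5.61, 5.56, 5.21 and 5.34 against 4.07, 3.75, 3.16 and 3.98 (1.69 ± 0.2, adjusted p = 2.01e-05). Defb43, a beta-defensin best known from the epididymis, read 2.61, 2.60, 2.08 and 2.18 against 0.73, 0.36, -0.28 and 0.67 (2.0 ± 0.244). SD replicate 3 was the lowest SD array for Slc31a1, Pinx1 and Defb43.

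RT1-CE11, a class I major histocompatibility gene, read 0.99, 1.52, 1.18 and 1.58 in CAR KO and -0.70, 0.45, -1.02 and -0.65 in SD livers (1.80 ± 0.286). Cox4i2, a hypoxia-linked isoform of cytochrome oxidase best known from lung, was 1.49 ± 0.0916 higher, and the membrane-shaping ATPase Ehd2 was 1.46 ± 0.219 higher. The hyaluronidase gene Hyal3 was 1.92 ± 0.318 higher, with SD replicate 4 at -1.12 below the other SD arrays (0.32 to 0.74). Cox6c-ps1, listed as a pseudogene (1.68 ± 0.141), and the olfactory receptor gene Or8w1b (1.65 ± 0.114) were also higher. Apol7b (1.66 ± 0.3), an apolipoprotein L gene, was higher by 1 probe and -0.08 ± 0.114 by another. All 12 had a difference of the same sign on PB, and only that of Spink1 did not pass the test there (0.88 ± 0.453, adjusted p = 0.133).

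Genes measured on all 4 arrays of one model and on none of the other were dim. They passed the filter on dim probes through that model only, so their direction follows from the choice. Abcb1a, A1bg, Aldh1a3, Slc10a2, Sp5 and Spp1, described elsewhere, also passed the filter through a single model, so the same holds for them. The ATP-gated channel gene P2rx5 was at least 4.41-fold higher in CAR KO, the glutathione synthesis gene Gclm at least 4.00-fold, the Rac regulator Chn1 at least 3.54-fold and the olfactory receptor gene Or6d14 at least 3.52-fold. These bounds set the CAR KO mean against the lowest signal that counts as well above background on the SD arrays. With normexp, the calls of P2rx5 (0.24, adjusted p = 0.082) and Or6d14 (0.16, adjusted p = 0.173) ended. Over the alternatives the difference of Gclm ran down to 0.27, from 2.55 in the main fit, and that of Chn1 to 0.21, from 2.72. Both stayed called, but the bounds hold for the main processing only. In the other direction the one such named gene was the cytokine receptor gene Il20rb, at least 2.73-fold lower, a call that ended without SD replicate 4 or any of 3 CAR KO arrays (-1.03 without SD replicate 4).

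Other probes of the same genes were set beside the probe used. Of 498 called named genes with another tested probe, 150 were higher and 348 lower. All other probes had the same sign for 67 of the 150 (44.7%) and 272 of the 348 (78.2%), and all passed the test in the same direction for 24 (16%) and 146 (42.0%). Over the 1826 tested probes not used for their gene 70.6% lay below 0, with a median of -0.15. Among bright genes the same sign was seen for 26 of 68 higher (38.2%) and 187 of 234 lower (79.9%). The cell cycle inhibitor gene Cdkn1a, the interferon-inducible GTPase gene Igtp, the glucocorticoid receptor gene Nr3c1, the clock gene Per3 and the protease gene Gzmb were all higher by the probe used, by 0.69, 0.61, 0.74, 1.06 and 1.80. Their other probes gave -0.06, -0.10, 0.04, 0.05 and -0.69, none past the test.

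**Figure D3:**
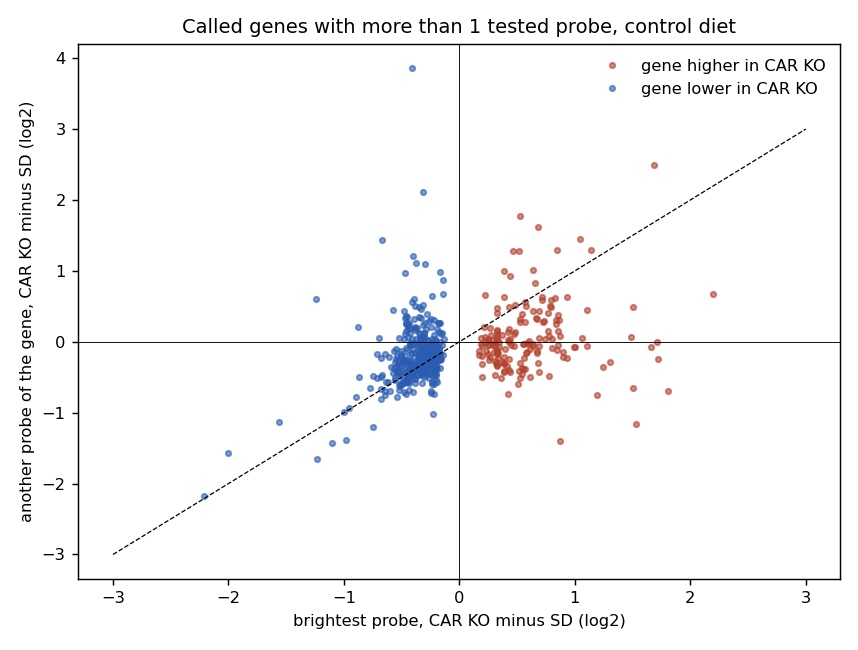
Difference between CAR KO and SD livers (log2) by a gene's brightest probe (x axis) and by another tested probe of it (y axis), 1 point per other probe of the 498 called named genes that have one, in red for genes called higher and in blue for genes called lower. The dashed line marks equal values: points of genes called lower lie mostly below 0 on the y axis, and 67 of the 150 genes called higher had every other probe above 0.

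Chaperones and quality-control genes of the endoplasmic reticulum fold secreted proteins and remove those that misfold. In the list of unfolded protein and heat shock genes 12 of 37 were lower and 2 higher (37.8% called, against 34.1% of all genes), and the median was -0.21. Of 29 bright members 9 were lower, beside 26.9% of all bright genes. With the spread of all 30 arrays 5 members were lower. Sdf2l1, an ER chaperone cofactor, read 2.15, 2.74, 3.20 and 2.83 in CAR KO and 3.73, 3.42, 4.26 and 3.36 in SD livers, with no overlap (-0.96 ± 0.228, adjusted p = 0.00519), and its second probe gave -0.93 ± 0.204. Hsp90b1, the ER form of HSP90, read 2.78, 3.06, 3.74 and 3.12 against 4.00, 3.89, 4.18 and 3.81, also with no overlap (-0.79 ± 0.163, adjusted p = 0.00196), and was -1.10 ± 0.162 on PB. Asns, which makes asparagine and is raised by amino acid shortage, was dimmer and lower (-1.19 ± 0.167, adjusted p = 9.91e-05), and so was Ddit4. Chosen after their values were seen, the calcium-binding chaperone Calr (-0.53 ± 0.115) and the degradation genes Sel1l (-0.47 ± 0.102) and Herpud1 (-0.54 ± 0.187) were also lower. Hspa5, the main ER chaperone, differed by -0.28 ± 0.154 (adjusted p = 0.186). The Herpud1 call ended without any of 6 arrays (-0.42 without SD replicate 1).

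Many of these genes are raised through the ER stress response element, at which NF-Y and ATF6 bind. The promoters of Hsp90b1 (minus strand, chr7:23012244-23012543) and Calr (plus strand, chr19:40213117-40213416) from RefSeq's GRCr8 are shown because both genes were lower and hold it. Capitals mark the element, searched on both strands as CCAAT and CCACG with 9 bases of any kind between them, and chosen after the values were seen.
Hsp90b1: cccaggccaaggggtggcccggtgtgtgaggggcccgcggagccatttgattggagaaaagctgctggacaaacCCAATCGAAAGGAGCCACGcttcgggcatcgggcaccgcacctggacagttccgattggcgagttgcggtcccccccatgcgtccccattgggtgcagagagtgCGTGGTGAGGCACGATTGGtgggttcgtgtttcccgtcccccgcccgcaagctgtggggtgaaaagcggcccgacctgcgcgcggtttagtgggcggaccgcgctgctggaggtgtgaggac
Calr: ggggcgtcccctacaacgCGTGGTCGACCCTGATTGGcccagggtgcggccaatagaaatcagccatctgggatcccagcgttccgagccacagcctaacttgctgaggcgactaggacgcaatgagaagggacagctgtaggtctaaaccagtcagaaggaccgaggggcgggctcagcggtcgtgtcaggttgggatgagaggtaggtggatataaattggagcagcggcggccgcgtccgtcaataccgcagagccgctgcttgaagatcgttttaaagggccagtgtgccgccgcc
The element occurs 2 times in the Hsp90b1 promoter and 1 time in that of Calr. Of the tested list members 32 matched the promoter table and 9 held it, against 0.0657% of all 33469 promoters. The list is of genes known for this response, so that contrast follows from its membership and says nothing about CAR KO. For holders besides Hsp90b1, Calr and Hspa5 no result is given here. Holders of the element were not all lower, since Hspa5 did not pass the test, and members without it, such as Sdf2l1 and Sel1l, did.

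Genes expressed around the central vein, where CAR targets and Wnt signalling are strongest, were tested as a list. Of 18 pericentral genes tested 8 were lower and none higher (0 higher by limma, 44.4% called, against 34.1% of all genes), with a median of -0.38. The Wnt inhibitor Notum read -0.17, 0.21, -1.23 and -0.12 in CAR KO and 0.23, 0.80, 0.54 and 0.62 in SD livers, a narrow gap between groups (-0.87 ± 0.253, adjusted p = 0.0162). The Wnt target Axin2, chosen after its value was seen, was also lower (-0.85 ± 0.219). So were the Wnt-responsive transcription factor Sp5 (-1.11 ± 0.352, dim), the glutamate carrier Slc1a2 (-1.0 ± 0.32), the ammonium carrier Rhbg (-0.98 ± 0.318) and the sterol hydroxylase Cyp27a1 (-0.74 ± 0.0968). Sp5, among the 8 lower, passed the filter on dim probes only through its SD arrays, so its direction follows from the filter. It could be tested in 5 of the 8 fits with 1 array left out. The Slc1a2 call ended without any of 5 arrays (-0.87 without SD replicate 2), that of Rhbg without SD replicate 2 or 4 or CAR KO replicate 3 (-0.82 without the last) and that of Sp5 without CAR KO replicate 3 or 4 (-0.98 without replicate 4). Over single arrays left out, between 4 (without SD replicate 2) and 8 members of the pericentral list were lower. With the spread of all 30 arrays 3 were. Periportal genes gave 1 higher and 6 lower of 22 (median -0.18, and 3 lower without SD replicate 3). On PB 7 of them were higher and 4 lower, with a median of 0.13. Those lower on control diet included Apoa4, Ass1, Serpina1 and the immunoglobulin carrier Pigr (-0.42 ± 0.156). The Pigr call ended without any of 7 arrays (-0.35 at the least).

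Lists of proteins that the liver secretes follow, to be read beside 34.1% of all genes called and 19.7% lower. Most members were bright (23 of 26 apolipoproteins and lipid carriers, 34 of 37 acute phase genes and 16 of 17 hepatocyte markers). Of bright genes 39.1% were called and 26.9% lower. Among apolipoproteins and lipid carriers 12 of 26 were lower and 1 higher (50% called), with a median of -0.21. Under the other scalings 6 to 12 were lower, and with the spread of all 30 arrays 4 were. Apoa1, the main protein of high-density lipoprotein, read 6.21, 6.55, 6.57 and 5.78 in CAR KO and 7.31, 6.94, 7.17 and 7.07 in SD livers (-0.85 ± 0.217, adjusted p = 0.00818), with no overlap. Apom (-0.83 ± 0.136), its sphingosine phosphate carrier, and the lipoprotein receptor Lrp1 (-0.65 ± 0.0809) were called on both diets. Apoa4 was -0.86 ± 0.313 (adjusted p = 0.0465), a call that ended without any of 6 arrays (-0.65 without SD replicate 1). Acute phase genes gave 14 lower and none higher of 37 (0 higher by limma, 37.8% called, median -0.20). The lower ones numbered 8 to 14 under the other scalings and 3 with the spread of all 30 arrays. A2m, a protease inhibitor that rises in rat inflammation, read -1.06, -1.76, 0.03 and -1.04 against 0.56, 0.87, 0.00 and 1.0 (-1.57 ± 0.371), and the values met at CAR KO and SD replicate 3. Lbp, the endotoxin-binding protein (-0.70 ± 0.181), Itih3 (-0.44 ± 0.0783) and Serpina3n (-0.42 ± 0.108) were lower too. Of 17 hepatocyte markers 8 were lower and none higher (0 higher by limma, 47.1% called), with Ahsg at -0.41 ± 0.0667 and Ass1, of the urea cycle, at -0.34 ± 0.0976 (its call ended without SD replicate 3, at -0.29). Their mean level was 6.59 to 6.74 on CAR KO and 6.89 to 6.93 on SD arrays. The number of lower hepatocyte markers was between 3 and 8 under the other scalings and 0 with the spread of all 30 arrays. Their median stayed between -0.25 and -0.13 under those scalings. On PB 1 of these markers was lower and 0 were higher by limma, with a median of -0.10.

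Amino acid and urea cycle genes were lower in 19 of 53 and higher in none (0 higher by limma, 35.8% called, against 34.1% of all genes, median -0.24). Of 49 bright members 16 were lower, beside 26.9% of all bright genes. With the spread of all 30 arrays 4 members were lower. On PB 11 were higher and 15 lower, with a median of 0.10. Besides Asns, those lower on control diet included the aminotransferase Gpt (-0.71 ± 0.215), the asparaginase Asrgl1 (-0.71 ± 0.212) and the tryptophan-degrading Tdo2 (-0.57 ± 0.0983). The Gpt call ended without SD replicate 2 or 3 or CAR KO replicate 2 (-0.63 without SD replicate 2) and that of Asrgl1 without SD replicate 3 (-0.55). In glucose metabolism 2 of 42 were higher and 7 lower (21.4% called). The glucose carrier Slc2a1 (-0.80 ± 0.193) and mitochondrial Pck2 (-0.73 ± 0.113) were lower, and glycogen phosphorylase Pygl was higher (0.46 ± 0.101).

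Lists of lipid metabolism had fewer calls than the 34.1% of all genes, from 13.2% in lipogenesis to 19.7% in the first list below. PPAR-alpha and fatty acid oxidation genes gave 3 higher and 10 lower of 66 (19.7% called), with a median of 0.01. Cyp4a3 and the desaturase Fads1 (0.61 ± 0.186) were higher, and the thioesterase Acot12 (-0.55 ± 0.169) and the peroxisomal reductase Decr2 (-0.48 ± 0.0769) were lower. Lipogenesis gave 1 higher, the acetyl-CoA carboxylase Acacb (0.82 ± 0.152), and 4 lower of 38, among them the glucose-sensing factor Mlxipl (-0.50 ± 0.106) and the triglyceride-forming Dgat1 (-0.30 ± 0.0805). In cholesterol synthesis Fdft1 (0.48 ± 0.108) was the 1 higher of 29, and Soat2 (-0.55 ± 0.134), Mvk (-0.40 ± 0.126) and Nsdhl (-0.33 ± 0.116) were the 3 lower. Bile acid genes gave 1 higher of 22, the bile acid CoA ligase Slc27a5 (0.95 ± 0.3, with SD replicate 4 at 7.73 among the CAR KO arrays), and 3 lower, Cyp27a1, the FGF19 receptor Fgfr4 (-0.45 ± 0.0725) and the sterol carrier Scp2 (-0.22 ± 0.055, and -0.12 with quantile normalization at an adjusted p of 0.222). Calls of Fads1 (0.44 without SD replicate 2), Acot12 (-0.44 without CAR KO replicate 3), Mvk (-0.36 without CAR KO replicate 4), Nsdhl (-0.24 without CAR KO replicate 4) and Slc27a5 (0.76 without SD replicate 2) each ended without 3 to 6 different arrays taken singly.

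Antioxidant genes under NRF2 gave 2 higher and 8 lower of 36 (27.8% called, against 34.1% of all genes, median -0.13). Gclm, which passed the filter only through its CAR KO arrays, was higher as given above. Txnrd1 (-0.72 ± 0.113, second probe -0.51 ± 0.124), mitochondrial superoxide dismutase Sod2 (-0.51 ± 0.108) and glutathione reductase Gsr (-0.35 ± 0.119) were lower. The Gsr call ended without any of 5 arrays (-0.27 without SD replicate 2). Of 10 Ah receptor targets 1 was higher, Tnfaip2 (0.70 ± 0.229), and 3 lower, the receptor Ahr itself (-1.01 ± 0.228) and xanthine dehydrogenase Xdh (-0.54 ± 0.0768) among them. Tnfaip2 lost its call without 3 different arrays taken singly (0.56 without CAR KO replicate 2). Among CAR and its partner receptors and regulators 2 of 34 were higher, Nr3c1 being one, and 5 lower, Ahr, CAR's partner Rxra (-0.45 ± 0.132) and the thyroid receptor Thra (-0.44 ± 0.129) among them. Thyroid hormone handling, which CAR is known to affect through conjugation, gave 1 higher of 15, the mitochondrial glycerophosphate dehydrogenase Gpd2 (0.66 ± 0.105, second probe 0.34 ± 0.122), and 2 lower, Rxra and Thra. The Thra call ended without CAR KO replicate 3 (-0.35).

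Growth genes showed fewer calls than the 34.1% of all genes, at 12.8% in cell cycle and 11.8% in growth arrest and early growth genes. Cell cycle genes were lower in 6 of 47 and higher in none (0 higher by limma, 12.8% called), with Cdk4 (-0.41 ± 0.064), the DNA helicase subunit Mcm7 (-0.44 ± 0.0683), thymidine kinase Tk1 (-0.57 ± 0.106) and the dim cyclin Ccne1 (-0.68 ± 0.236) the largest. The Ccne1 call ended without any of 5 arrays (-0.58 without SD replicate 3). Growth arrest and early growth genes gave 4 higher of 34 and none lower (0 lower by limma), Zfp36, the cyclin gene Ccng1 (0.75 ± 0.251) and Cdkn1a among them. As given above, the second probe of Cdkn1a did not share the difference, and the call of Ccng1 ended without any of 5 arrays (0.62 without SD replicate 3). Of 17 circadian clock genes Per3 was higher and Clock (-0.43 ± 0.0492) and Cry1 (-0.38 ± 0.126) were lower. The Cry1 call ended without any of 5 arrays (-0.28 without SD replicate 3). Fetal and preneoplastic liver genes gave 1 lower of 12, the matrix protein Spp1 (-1.89 ± 0.546, measured on 2 CAR KO arrays, its call ending without CAR KO replicate 3 or 4 at -1.51 and -1.59).

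Of 43 interferon-responsive genes 1 was higher, Igtp, and 2 lower, Ifi44l (-0.39 ± 0.111) and Irf9 (-0.39 ± 0.129), which is 6.98% called, against 34.1% of all genes. Without SD replicate 3 or CAR KO replicate 3 the lower ones were 5. The Irf9 call ended without 4 different arrays taken singly (-0.28 without CAR KO replicate 1). Of 40 MHC and antigen presentation genes 2 were higher, RT1-CE11 and RT1-CE4 (1.47 ± 0.411), and 7 lower, with RT1-M2 (-0.68 ± 0.195) and RT1-T18 (-0.68 ± 0.0686) the largest. The mean over its probes gave RT1-T18 a difference of -0.14 (adjusted p = 0.582). Without CAR KO replicate 1, 5 of the list were higher. SD replicate 2 was the highest SD array for both RT1-CE genes, at 0.45 and 0.64.

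Markers of other liver cells were set beside these results, and their part in them was not tested. Over all genes tested 14.4% were higher and 19.7% lower. Of 19 macrophage and Kupffer cell markers 5 were lower, with Vsig4 (-0.64 ± 0.177), C1qc (-0.56 ± 0.16), C1qa (-0.47 ± 0.154), Msr1 (-0.47 ± 0.0996) and Clec4f (-0.43 ± 0.147), and none was higher (0 by limma). Their mean level was 0.89 to 1.59 on the CAR KO arrays and 1.27 to 1.69 on the SD arrays. Without CAR KO replicate 4, 13 of these markers were lower, and without SD replicate 1 or 2 or CAR KO replicate 1, 2 or 3, 3 were, the calls of C1qa and Clec4f ending without 5 and 7 different arrays (-0.40 for C1qa without SD replicate 2 and -0.34 for Clec4f without CAR KO replicate 1). Stellate cell and fibroblast markers gave 1 higher and 6 lower of 16, but 3 lower without SD replicate 1 or CAR KO replicate 1 and 1 lower with the spread of all 30 arrays. Among the 6 were the pericyte gene Rgs5 (-0.86 ± 0.143), Vim (-0.48 ± 0.168), Lrat (-0.47 ± 0.113, second probe -0.20 ± 0.197) and Reln (-0.47 ± 0.144), and the mean level of the list was -0.74 to -0.46 against -0.52 to -0.25. Calls of Vim and Reln each ended without any of 5 arrays (-0.35 for Vim without CAR KO replicate 2, -0.38 for Reln without SD replicate 2). Of 10 endothelial markers Eng (-0.63 ± 0.1) and Erg (-0.26 ± 0.0811, its call ending without any of 3 arrays, with -0.20 without SD replicate 4) were lower.

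T, NK and B cell markers were dim, with Cd2 and Cd3e measured on no array. Of 15 tested 3 were higher, Gzmb and Cd8b (1.22 ± 0.153) among them, and 2 lower, the B cell gene Cd79b (-1.04 ± 0.203) among them (33.3% called, against 34.1% of all genes). Over the alternatives the difference of Cd8b ran down to 0.22, though it stayed called. The other probe of Gzmb gave -0.69, as stated above. The mean level of the list was -3.16 to -2.43 against -2.83 to -2.50. Cholangiocyte markers gave 1 lower of 8, Spp1, and a mean level of -3.83 to -3.12 against -3.17 to -2.66. None of 7 erythroid and 4 neutrophil markers was called (0 by limma), and their mean levels overlapped, at 1.95 to 2.80 against 1.84 to 3.37 and at -2.53 to -2.32 against -2.67 to -2.07. Leaving out 1 array also moved the counts of other small lists. The lower T, NK and B cell markers numbered 5 without CAR KO replicate 4, the higher growth hormone axis genes 0 without CAR KO replicate 1 or 2, the lower partner receptors 3 without CAR KO replicate 3, the higher transporters 2 without SD replicate 4, the higher PPAR-alpha genes 5 without SD replicate 4 and the lower cholesterol genes 1 without SD replicate 4 or CAR KO replicate 2 or 4. For the tissue label, 16 of the 17 hepatocyte markers, Apoa2 among them, were bright and so measured on all 8 arrays.

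**Figure D4:**
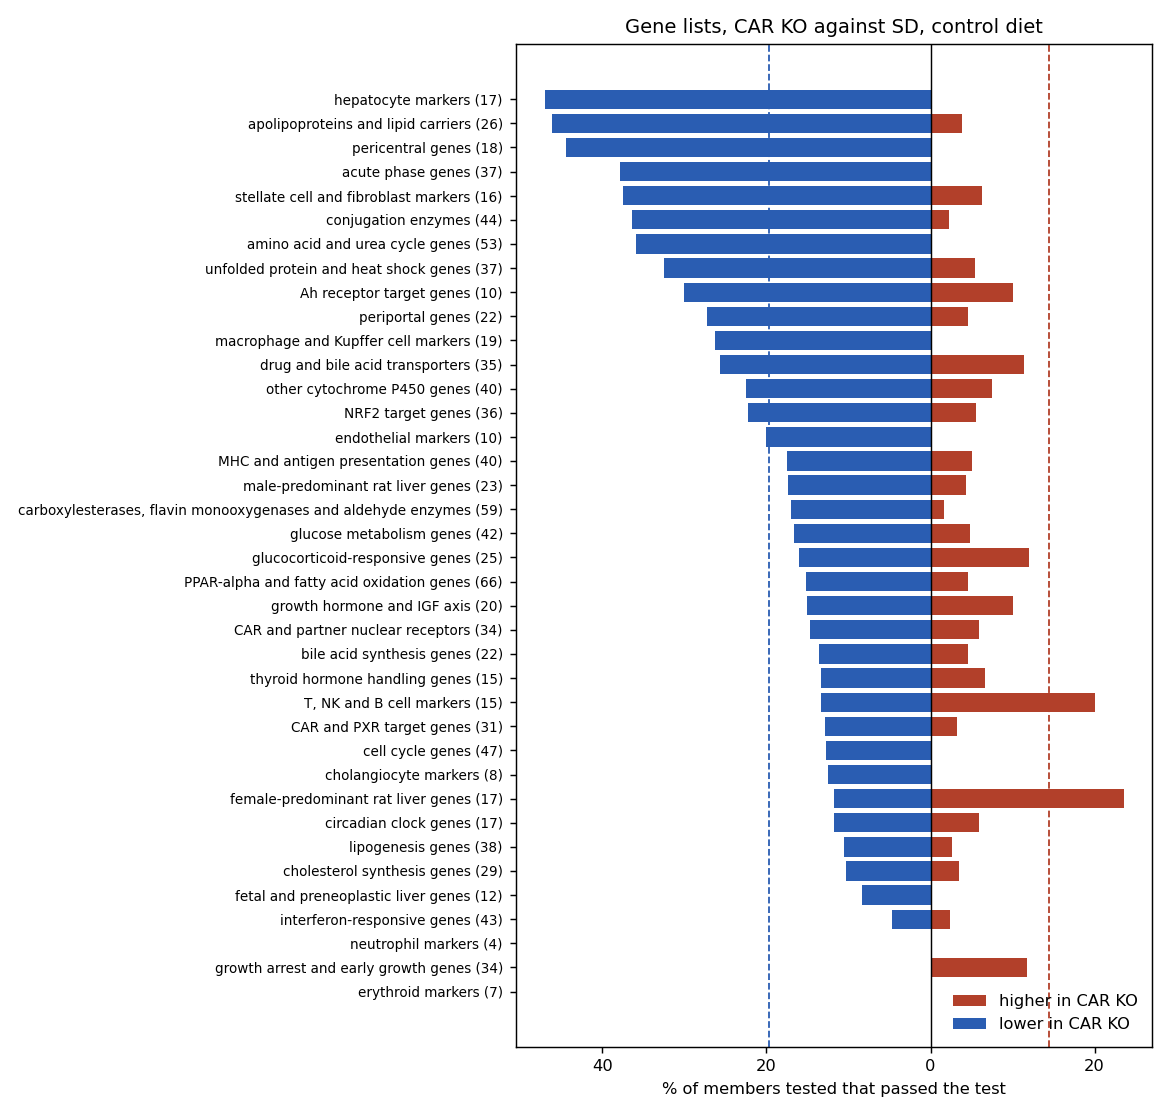
Share of the tested members of each gene list that were lower (blue, to the left) or higher (red, to the right) in CAR KO livers, in % of members tested, with the number tested in parentheses. Dashed lines mark 19.7% lower and 14.4% higher over all genes tested: hepatocyte markers, apolipoproteins and pericentral genes reach farthest to the left, and female-predominant genes farthest to the right. For bright genes these shares were 26.9% lower and 12.2% higher.

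The same 2 models were also compared on PB, in other animals but on the same 2 slides. There 6977 of 16583 genes were called (42.1%). Of the 6038 genes called on control diet 5791 were tested on PB, and 4251 of them (73.4%, and 60.9% of the PB calls) were called in the same direction, with 12 in the opposite one. Among the bright genes that differed at least 2-fold, 215 of 227 were called again. The difference itself changed between diets, as tested, for 34 of the 5791. Of the CAR and PXR list only 5 genes were called on control diet, but 22 of 31 were lower on PB, with a median of -1.04. The gap between the models widened from -0.08 to -4.20 ± 0.138 for Cyp2b2, from 0.07 to -2.0 ± 0.193 for Cyp3a23-3a1, from -0.73 to -2.47 ± 0.175 for Por, from 0.49 to -2.34 ± 0.272 for Ces2c and from -0.37 to -2.61 ± 0.203 for Gadd45b. In these 5 genes the change of the difference passed the test (adjusted p from 8.17e-08 to 0.00558). Rdh16, Slc31a1 and Cyp4a3 by contrast differed on both diets, and Mt1, Mt2A and Fmo1 were called on control diet and not on PB, with the change between diets not past the test.

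**Figure D5:**
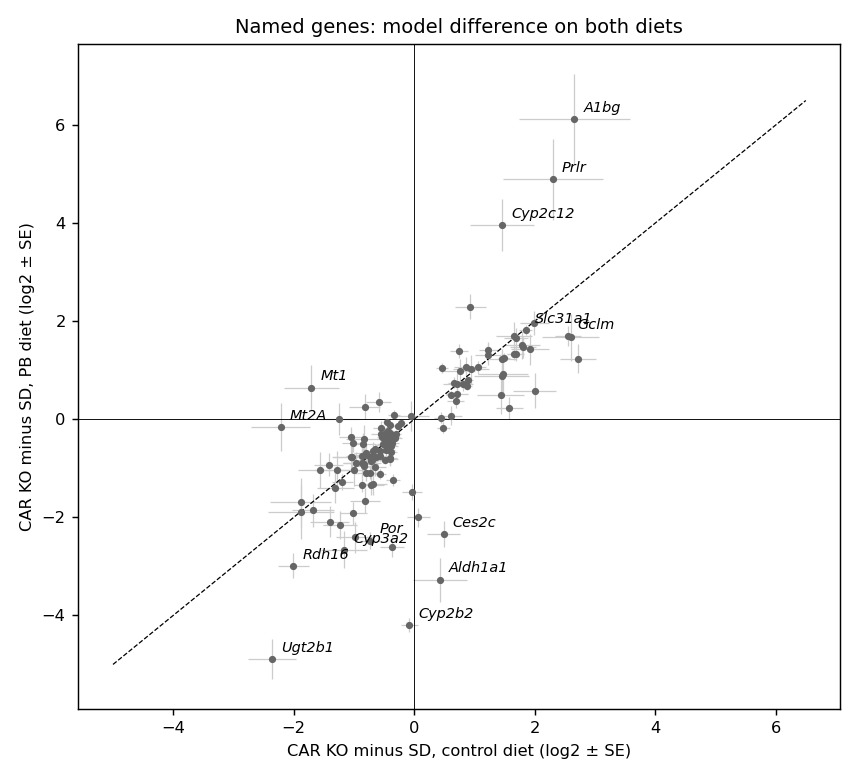
Difference between CAR KO and SD livers on control diet (x axis) and on PB (y axis), both log2 with SE bars, for the named genes tested on both diets, 1 point per gene. The dashed line marks equal differences: Slc31a1 and Gclm lie near or below it, Ugt2b1, A1bg and Cyp2c12 differed more on PB, and Cyp2b2, Ces2c and Aldh1a1 passed the test on PB and not on control diet.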

How the data were processed

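Each array held liver RNA of 1 rat, labelled with Cy3 in 1 colour. Per the file headers, Feature Extraction 10.7.3.1 read the spots, and the deposited processed signal is a background-corrected intensity. The deposited value table holds log2 values of the same arrays, which differed from the scale used here by a constant within each array. Its log2 values were an alternative only. Processed signals were turned to log2 and each array's 75th percentile was subtracted. Control spots and outlier flags were left out, and spots of 1 probe were averaged. Each gene was read by its brightest probe. Genes well above background on at least 75% of the arrays of either group were tested with limma 3.58.1 (R 4.3.3), fitted on all 16 rat arrays, with Benjamini-Hochberg adjustment over all genes tested. Adjusted p-values are limma's throughout, two-sided, and ± is the SE. Named genes were the 12 bright called ones with the largest differences in each direction whose groups did not overlap, up to 4 with the largest bounds in each direction, up to 4 called members of each list with the largest differences, Nr1i3 and its neighbours, and the main CAR targets. Outside this rule, Axin2, Calr, Clec4f, Cyp2a1, Herpud1, Hspa5, Sel1l, Ugt2b10 and Ugt2b35 were chosen after their values were seen. Members and lists were chosen with earlier results of these data known. On simulated data with the real spread, 49% of changes of 0.5 and 82% of changes of 1 on the log2 scale were recovered. There only 100 genes of each size were changed among 17717, a far smaller share than was called in the real data. The adjusted cutoff was therefore stricter, and these values do not give the power of the real comparison. The number of arrays limits the precision. Alternatives were other scalings, normexp background correction, other filters, other probe rules, other sets of arrays, array weights, a replicate block and leaving out each array. Replicate numbers did not pair the samples. Some genes that the rule names are not reported here.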

Additional observations from a re-analysis of the deposited data

Results flagged for a closer look

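Among 308 groups of 4 arrays examined, 15 held an array far from the other 3, where chance gives about 1 in 20. On CAR KO arrays these were Acot12 (replicate 3, at 0.86), Ces2c (replicate 3, 0.036), Il20rb (replicate 4, -6.49), Or8w1b (replicate 2, 2.46) and Tnfaip2 (replicate 2, 1.25). On SD arrays they were Ahsg (replicate 3, 8.59), Ccne1 (replicate 2, -4.25), Clec4f (replicate 1, 5.06), Cyp2b2 (replicate 2, 3.21), Erg (replicate 4, 0.34), Fcgr2al1 (replicate 3, 1.16), Igfbp3 (replicate 4, 3.46), Mlxipl (replicate 2, 1.03), Serpina1 (replicate 4, 9.06) and Slc22a5 (replicate 3, -3.62).

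The difference between the models depended on the diet, as tested by limma on the difference itself, for 8 genes described here. The difference on PB minus that on control diet was -4.12 ± 0.196 for Cyp2b2, -3.70 ± 0.639 for Aldh1a1, -2.83 ± 0.387 for Ces2c, -2.24 ± 0.288 for Gadd45b, -2.07 ± 0.273 for Cyp3a23-3a1, -1.75 ± 0.249 for Por, -1.44 ± 0.231 for Ephx1 and -0.88 ± 0.168 for Gsr. Adjusted p ran from 8.17e-08 for Cyp2b2 to 0.0314 for Gsr.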

How the results depend on the processing

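With the spread taken over all 30 arrays, 2120 genes were called in place of 6038, 798 bright genes in place of 2751 and 2925 on PB in place of 6977. Normexp, run on the median signal and chosen after seeing the data, gave 409 differences of at least 2-fold in place of 992 and ended the calls of Cry1 (-0.22), Mvk (-0.24) and Pfdn2 (-0.12). The share of calls that were higher was 42.2%, against 27.5% with normexp and 66.1% with all 30 arrays, and 31.2% against 56.0% with all 30 for bright genes. Leaving out 1 array gave 4944 to 5622 calls, 911 to 1006 of at least 2-fold, 2281 to 2652 bright, 6230 to 6514 on PB, and -0.19 to 0.18 for Nr1i3. The replicate block gave 5711 calls, 978 of at least 2-fold, 2575 bright and 6727 on PB, and the numbers did not pair the samples. Signs turned for Nr1i3 with array weights (0.027), the mean of probes (0.018), without SD replicate 2 (0.18) or CAR KO replicate 3 (0.09), for Cyp4a8 with the mean of probes (-0.27), and for Ephx1 with normexp (0.00049) and without SD replicate 2 (0.091), SD replicate 4 (0.05) or CAR KO replicate 3 (0.05). They turned for Cyp3a23-3a1 without SD replicate 1 (-0.054) or 3 (-0.02, with 0.206 without SD replicate 4 the highest) and for Cyp2b2 without SD replicate 2 (0.0094, with -0.114 without SD replicate 1 the lowest). The causes were not tested. Of 146 called genes named here, 58 passed in every alternative and 87 failed in at least 1, and Cyp4a8 turned its sign. Fitted on only the 8 arrays compared, 17 of the 146 failed, Cyp3a2, Cyp2c12, A1bg and Prlr among them. Leaving out single arrays alone, 100 passed each time and 46 failed at least once.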
